A study of Mus musculus with 8 samples.

Results

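The urea cycle and its periportal nitrogen partners were examined as 10 named genes in mouse liver. They are Nags, Cps1, Otc, Ass1, Asl, Arg1, the carriers Slc25a15 and Slc25a13, and the glutamine and glutamate enzymes Gls2 and Glud1. The genes were listed by their known function, with earlier results of these data known. All 10 were found among the 42982 features tested on the array, of which 23911 were genes with a symbol. The RNA came from livers of male recombinant congenic mice on the New Zealand Obese (NZO) background, a mouse model of polygenic obesity, bred from NZO/HiBomDife and C57BL/6J. There were 4 arrays of Ltg/NZO.5.3N/N (abbreviated NN) and 4 of Ltg/NZO.5.3N/B (abbreviated NB), lines described as differing in 5.3 Mbp of chromosome 18. Both lines received a high-fat diet (45% fat) and were sampled at 5 weeks of age, so no chow-fed group is compared here. None of the 10 genes lies on chromosome 18.

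The urea cycle turns ammonia, which is toxic, into urea for excretion, and the liver is the only organ that runs the whole cycle at a high rate. It begins inside the mitochondrion, where Nags makes the activator that Cps1 requires and Otc forms citrulline, and it ends in the cytosol, where Ass1, Asl and Arg1 release urea and return ornithine. Hepatocytes near the portal vein express the cycle strongly, while hepatocytes around the central vein capture the remaining ammonia as glutamine. Fasting, dietary protein, glucagon and glucocorticoids are known to change the abundance of these enzymes.

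Each gene was read from short oligonucleotide probes, and 3 of the 10 genes had a second probe. The probe sequences of these 3 genes are given to show which probes are compared below, a comparison made by their signals alone. The Asl probes were designed to different accessions (NM_133768 and XM_006504341.1). For Slc25a13 (NM_001177572.1 and NM_015829.3) and Otc (NM_008769.3 and XM_011247449) the probes follow likewise, with the first 30 bases of those given in part. All are in lower case, 5′ to 3′, and no base is marked.
Asl NM_133768, whole: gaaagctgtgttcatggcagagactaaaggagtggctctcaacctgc
Asl XM_006504341.1, whole: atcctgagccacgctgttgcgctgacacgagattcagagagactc
Slc25a13 NM_015829.3, whole: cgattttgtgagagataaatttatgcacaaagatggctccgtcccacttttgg
Slc25a13 NM_001177572.1, first bases: ggtgccttgtatcatggtcagaggcttgtg
Otc NM_008769.3, first bases: ctactcacctgtgctccagaagccaaagtt
Otc XM_011247449, first bases: cagtgagtactttccaacaaatctactccg

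Signals are given as log2 values relative to the 75th percentile of the array in question, so a value of 0 means as bright as that percentile. Levels of different genes are not compared, since each probe has its own brightness. The percentile itself lay between 445 and 584.4 intensity units, 74.4% to 79.6% of probes were well above background, and no spot was saturated. Array NB 8 had a mean Pearson correlation of 0.990 with the other arrays, taken across features, where the others had 0.993 or 0.994. All 10 genes were well above background on all 8 arrays. Separate animals are not stated outright, so p-values measure only the spread between these arrays, which may be technical.

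The comparison between the genotypes asked whether the liver's nitrogen genes follow the allele carried in the segment. None of the 10 genes was called with limma (adjusted p = 1.00 for each, Benjamini-Hochberg over all features). In the same fit 3 of 42982 features were called, or 0.00698%. By direction, 9 of the 10 genes had a lower mean in NB, and the median of their log2 fold changes was −0.16. Nags was the exception. Over all features 54.1% had a lower mean in NB and the median was −0.01. Among the 4373 features at least as bright as the dimmest of the 10 genes the share was 70.0% and the median −0.03. With quantile normalization that share was 49.8%. In that setting 9 of the 10 genes had the lower mean in NB, and the median of the 10 was −0.13. Of these 9, Slc25a13 (−0.02) and Glud1 (−0.03) lay next to 0. The part of brightness or scaling in the direction of the genes was not tested.

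Cps1, the mitochondrial enzyme that commits ammonia to the cycle, read 6.19, 6.31, 6.15 and 5.90 on arrays NN 1, NN 4, NN 6 and NN 7. On arrays NB 2, NB 3, NB 5 and NB 8 it read 5.92, 5.54, 5.92 and 5.98. NN 1, NN 4 and NN 6 were higher than every NB array and NN 7 lay within the NB range, so the groups overlapped. The mean was 6.14 ± 0.17 in NN and 5.84 ± 0.20 in NB (SD, n = 4 each), and the NB level was 81.3% of the NN level (95% confidence interval 66.6% to 99.3%; log2 fold change −0.30, SE 0.127). NB 3 was far below the other NB arrays, and without it the log2 fold change was −0.20.

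Nags, which makes N-acetylglutamate, the obligate activator of Cps1, read 4.45, 4.55, 4.55 and 4.51 on the NN arrays in the same order, and 4.39, 4.59, 4.56 and 4.62 on the NB arrays. All 8 values lay within 1.17-fold of each other. The NB level was 102% of the NN level, with an interval that allows 90.0% to 115% (log2 fold change 0.02, SE 0.0776). Its log2 fold change was 0.07 with quantile normalization or without NB 2, and at or just below 0 without NN 1 or NB 8.

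Otc, the X-linked enzyme that joins carbamoyl phosphate to ornithine, read 6.15, 6.04, 5.80 and 5.88 in NN and 5.92, 5.79, 5.82 and 5.76 in NB. NN 1 and NN 4 were above all NB arrays, and NN 6 and NN 7 lay among them. Its NB level was 90.8% of the NN level (interval 78.2% to 105%), and the log2 fold change of −0.14 was −0.08 without NN 1 and −0.08 with quantile normalization. The second probe of Otc was dim, with means of −2.50 in NN and −2.75 in NB, and its log2 fold change was −0.26 (SE 0.126) against −0.14 (SE 0.0942) for the bright one.

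**Figure D1:**
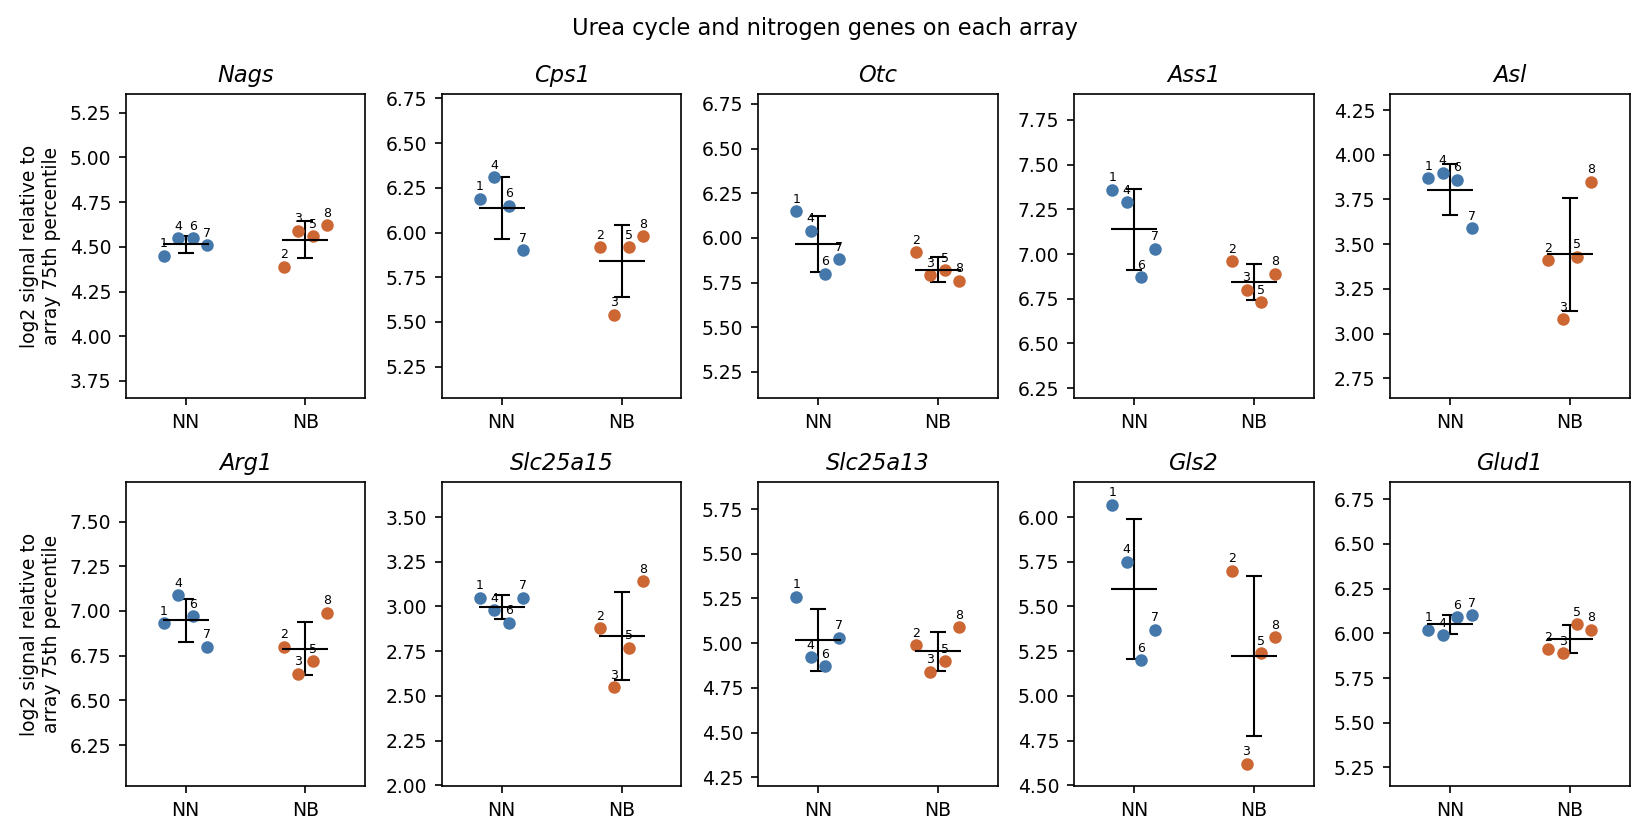
Log2 signal relative to the array 75th percentile for the 10 genes, with 1 point per array (labelled with its number), and bars for the mean and SD of each genotype (n = 4). Every panel spans the same height. Genotypes overlap for every gene, the points of Nags and Glud1 lie close together, and those of Gls2 are spread over a 2.73-fold range.

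All 3 cytosolic enzymes had the lower mean in NB. Ass1, which condenses citrulline with aspartate, read 7.36, 7.29, 6.87 and 7.03 in NN and 6.96, 6.80, 6.73 and 6.89 in NB. NN 1, NN 4 and NN 7 were above every NB array, while NN 6 lay below NB 2 and NB 8. The NB level was 81.5% of the NN level (interval 67.5% to 98.5%; log2 fold change −0.29, SE 0.12).

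Asl, which splits argininosuccinate into arginine and fumarate, read 3.87, 3.90, 3.86 and 3.59 in NN and 3.41, 3.08, 3.43 and 3.85 in NB. NB 2, NB 3 and NB 5 were below every NN array, and NB 8 sat beside the high NN arrays. The NB level was 77.7% of the NN level (interval 60.7% to 99.4%; log2 fold change −0.36, SE 0.157). The value was −0.24 without NB 3 and −0.50 without NB 8. The second Asl probe gave −0.35 (SE 0.154), and both probes ranked the arrays almost alike (Pearson r = 0.992 over 8 arrays, exact permutation p = 7.44e-05; Spearman rho = 0.976, exact permutation p = 0.000397). Over the 3 genes with a second probe the adjusted values were 0.000223 and 0.00119, and r was 0.993 without NB 2 and NB 3.

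Arg1, the arginase that releases urea, read 6.93, 7.09, 6.97 and 6.80 in NN and 6.80, 6.65, 6.72 and 6.99 in NB. Its NB level was 89.8% of the NN level, and the interval of 76.7% to 105% includes no difference. NB 8 was among the highest and NN 7 among the lower arrays, as for Asl.

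Of the carriers, Slc25a15, the mitochondrial ornithine carrier, read 3.05, 2.98, 2.91 and 3.05 in NN and 2.88, 2.55, 2.77 and 3.14 in NB. The NN arrays lay close together, with NB 2, NB 3 and NB 5 below all of them and NB 8 above all of them. The NB level was 89.4% of the NN level (interval 73.7% to 108%), and the log2 fold change went from −0.16 to −0.07 without NB 3 and to −0.26 without NB 8. It was also −0.07 with normexp background correction.

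Slc25a13, which encodes citrin, the aspartate-glutamate carrier that supplies Ass1 with aspartate, read 5.26, 4.92, 4.87 and 5.03 in NN and 4.99, 4.84, 4.90 and 5.09 in NB. The genotypes were fully mixed except for NN 1, the highest array. Slc25a13 in NB stood at 95.6% of the NN level (interval 81.0% to 113%). The log2 fold change of −0.07 was 0.01 without NN 1, −0.03 without NB 3, −0.12 without NN 6, −0.11 without NB 8 and −0.02 with quantile normalization. Its second probe, printed above in whole, was dim (means −0.40 in NN and −0.42 in NB) and gave a log2 fold change of −0.02 (SE 0.104). The probes of Slc25a13 did not rank the arrays alike (r = −0.09, exact permutation p = 0.845; rho = −0.02, exact permutation p = 0.977), and those of Otc did so only loosely (r = 0.528, exact permutation p = 0.178; rho = 0.548, exact permutation p = 0.171). The adjusted values were 0.845 and 0.977 for Slc25a13 and 0.267 and 0.256 for Otc. Without the pair of arrays farthest from the median r was −0.01 and 0.216.

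**Figure D2:**
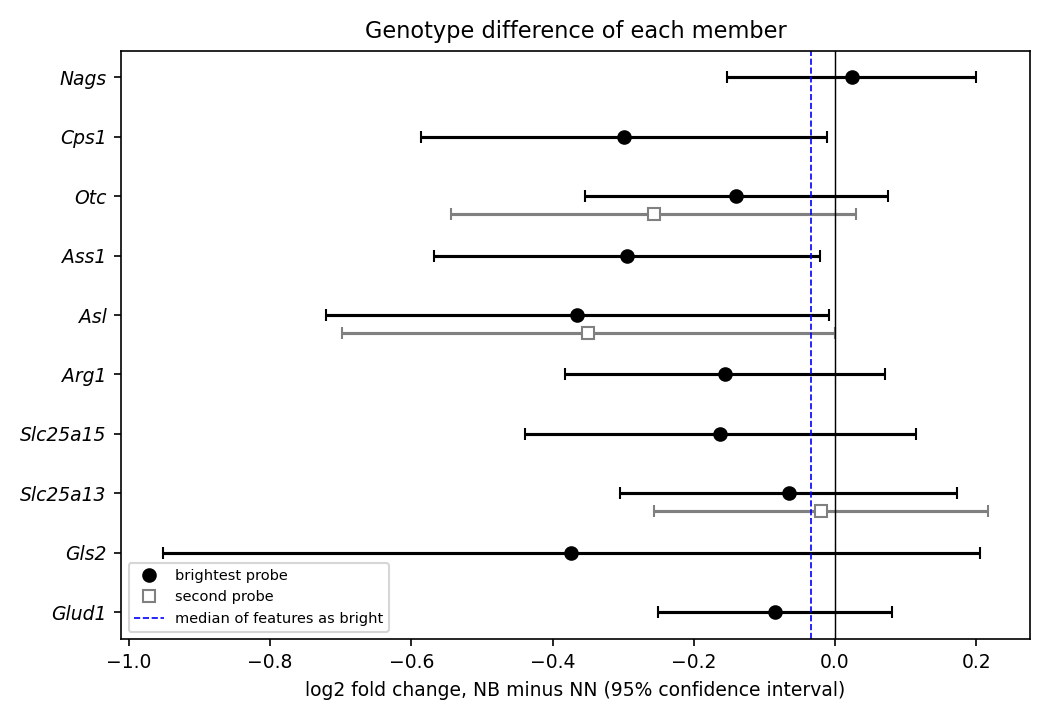
Log2 fold change (NB minus NN) of each gene with its 95% confidence interval from the limma fit, for the brightest probe (filled) and a second probe where there was one (open); the dashed line is the median of features at least as bright as the dimmest gene. The points lie between −0.37 and 0.02, and the intervals of Cps1, Ass1 and Asl end just below 0.

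Glutamine and glutamate feed ammonia into the cycle. Gls2, the liver-type glutaminase that frees ammonia from glutamine next to Cps1, read 6.07, 5.75, 5.20 and 5.37 in NN and 5.70, 4.62, 5.24 and 5.33 in NB. It varied most of the 10 genes, with a 2.73-fold range over the 8 arrays from NB 3 to NN 1. Gls2 in NB stood at 77.2% of the NN level, but the interval ran from 51.7% to 115%, and the log2 fold change of −0.37 (SE 0.255) was −0.17 without NB 3 and −0.22 without NN 1.

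Glud1, the mitochondrial dehydrogenase that releases ammonia from glutamate, read 6.02, 5.99, 6.09 and 6.10 in NN and 5.91, 5.89, 6.05 and 6.02 in NB. It was the gene with the narrowest range, 1.16-fold over the 8 arrays. Glud1 in NB stood at 94.3% of the NN level (interval 84.1% to 106%), and its log2 fold change of −0.08 was −0.03 with quantile normalization.

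Across the 10 genes, 0 had all NB arrays below all NN arrays, a pattern that 0.731% of all features showed. Cps1, Ass1 and Asl had an unadjusted p under 0.05 in the limma fit, lower in NB, where 0.956% of all features were lower in NB at that level. The exact two-sided permutation test over the 8 arrays gave p = 0.114 for Cps1, 0.0857 for Ass1 and 0.0571 for Asl. With 4 arrays a genotype, that test goes under 0.05 only where the genotypes do not overlap. All 10 genes overlapped, so a value under 0.05 was not possible for any, and the limma count cannot be judged by it. The limma count of 3 was 0 without NB 3, without NN 1 or without NN 4, and 4 without NB 8. The count with any of the other arrays left out is not given here. Without NB 8 all 10 genes had the lower mean in NB, with a median of −0.24.

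Read array by array, the genes did not split by genotype. On NB 3 the level of 9 of the 10 genes was below the gene's own mean over the 8 arrays, and NB 3 was the lowest array for 7 of them. NN 1 had 9 of 10 genes above their mean and NN 4 had 8, while NN 6 and NN 7 had 5 and 4. Among NB arrays, NB 2 and NB 5 each had 8 genes below their mean, and NB 8 had 6 above. Median deviations were 0.23 on NN 1 and 0.18 on NN 4, against −0.20 on NB 3, −0.12 on NB 5 and 0.05 on NB 8. The summed level of 8 Kupffer cell markers, which mark the resident macrophages, was 65.0, 64.1, 80.9 and 86.9 on NN 1, NN 4, NN 6 and NN 7. On NB 2, NB 3, NB 5 and NB 8 it was 67.6, 94.7, 89.2 and 90.0 (linear signal in units of the array percentile). This sum was lowest on NN 4 and NN 1 and highest on NB 3. With every marker weighted alike, the mean log2 deviation from the markers' own means was 0.242 on NB 5 and 0.240 on NB 3. It was lowest on NN 4 (−0.36). The part of these markers in the values of the nitrogen genes was not tested.

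The 8 arrays lay on 1 slide, and each of its 4 columns held 1 array of each genotype. In the column of NB 2 and NN 1 all 10 genes were lower on the NB array (median difference −0.25), and in that of NB 3 and NN 4 it was 9 of 10 (median −0.43). In the other columns 6 of 10 (NB 5 against NN 6, median −0.09) and 4 of 10 (NB 8 against NN 7, median 0.07) were lower. Of all features, 57.5%, 47.9%, 52.1% and 48.3% were lower on the NB array in these columns, in the same order. Their medians lay between −0.04 and 0.01. Within the slide rows 7 of 10 and 9 of 10 genes were lower in NB, with medians of −0.08 and −0.30. Ass1 was lower on the NB array in all 4 columns, as was Glud1, and no gene was higher in all 4. The share of all features lower in all 4 columns was not counted.

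**Figure D3:**
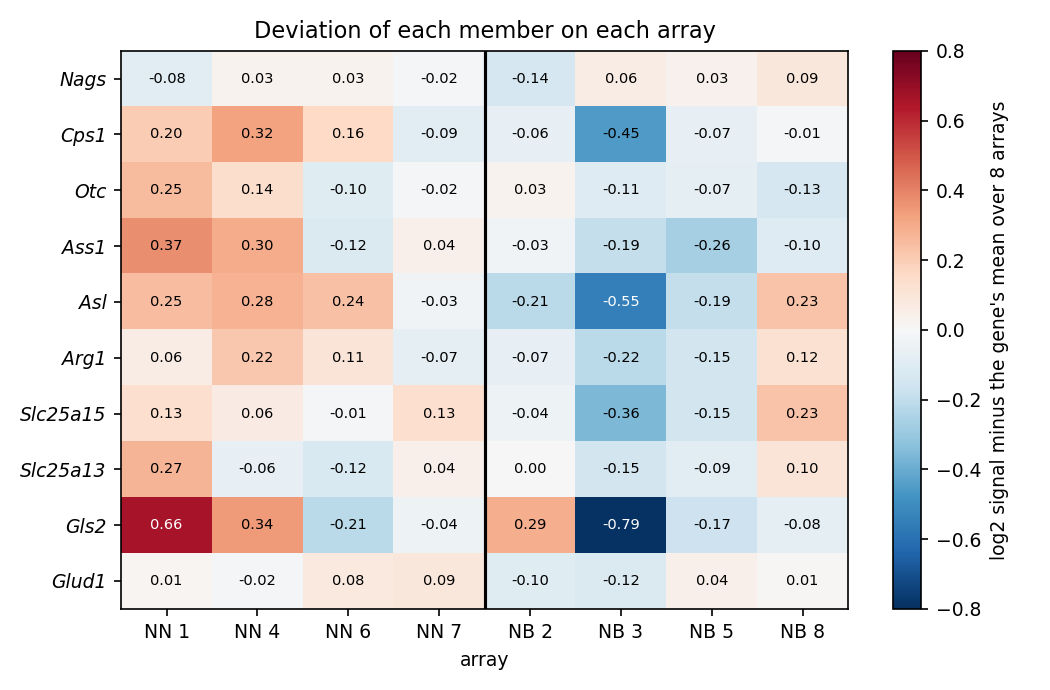
Log2 signal of each gene on each array minus the gene's mean over the 8 arrays, with NN arrays left and NB arrays right of the line. NB 3 is the lowest column for 7 genes, NN 1 is high for Gls2 (0.66) and Ass1 (0.37), and NB 8 is above the mean for 6 genes.

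Neighbouring steps of the pathway were then compared over the 8 arrays in 7 pairs of genes. Asl and Arg1, the last steps of the cycle, varied together (Pearson r = 0.931, exact permutation p = 0.00117, adjusted p = 0.00816; Spearman rho = 0.833, exact permutation p = 0.0154, adjusted p = 0.108). Their correlation was 0.941 without NB 2 and NB 3. It was 0.902 when the genotype means were removed, which is given as a description. With quantile normalization it was 0.861 (exact permutation p = 0.00734, adjusted p = 0.0514). The arrays share a slide and a scaling step. Some pairs outside the 7, which were not tested, had r nearly as high. Examples are Cps1 with Asl (0.911) and Ass1 with Otc (0.925).

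The other 6 pairs did not pass. Cps1 with Otc had r = 0.603 (exact permutation p = 0.121, adjusted p = 0.218; rho = 0.5, exact permutation p = 0.216, adjusted p = 0.378), and Ass1 with Asl had r = 0.596 (exact permutation p = 0.125, adjusted p = 0.218; rho = 0.643, exact permutation p = 0.0962, adjusted p = 0.224). Slc25a13 with Ass1, the carrier and its client, had r = 0.629 (exact permutation p = 0.0931, adjusted p = 0.218; rho = 0.714, exact permutation p = 0.0576, adjusted p = 0.202). Their r was 0.479, 0.319 and 0.439 without the pair of arrays farthest from the median of the first gene.

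The activator and its enzyme showed no such relation. Nags with Cps1 had r = −0.21 (exact permutation p = 0.610, adjusted p = 0.666; rho = −0.26, exact permutation p = 0.536, adjusted p = 0.751). Otc with Slc25a15 had r = 0.335 (exact permutation p = 0.419, adjusted p = 0.587; rho = 0.167, exact permutation p = 0.703, adjusted p = 0.821), and Gls2 with Glud1 had r = 0.179 (exact permutation p = 0.666, adjusted p = 0.666; rho = 0, exact permutation p = 1, adjusted p = 1). Without the pair of arrays farthest from the median r was −0.27, 0.0548 and −0.78 for the 3 pairs.

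**Figure D4:**
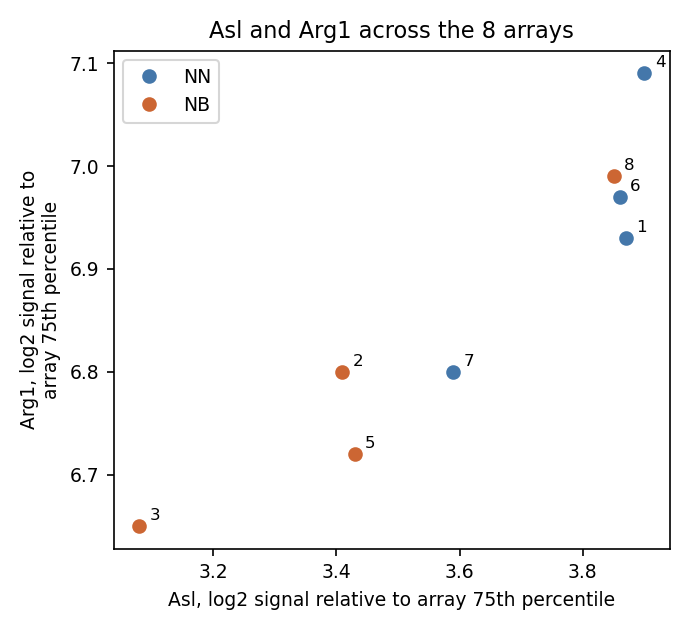
Log2 signal of Asl (x axis) and Arg1 (y axis) relative to the array 75th percentile, with 1 point per array labelled by its number. Arrays NN 4, NN 6, NN 1 and NB 8 are high for both genes, and NB 3 is low for both.

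For each gene, the named gene whose signal followed it most closely over the 8 arrays was sought among 23631 others, as a description. Cps1 was followed by the RNA helicase gene Ddx5 (r = 0.967), Ass1 by the complex III subunit gene Uqcrc2 (r = 0.968), Asl by Park7, which encodes DJ-1 (r = 0.985), and Gls2 by the bile acid synthesis gene Akr1d1 (r = 0.993). Otc was followed by Igip (r = 0.991), Arg1 by the lymphocyte receptor gene Slamf1 (r = 0.966), Nags by the imprinted gene Mest (r = 0.982), Slc25a15 by Cflar (r = 0.971), Slc25a13 by the kinase gene Mapkapk2 (r = 0.975) and Glud1 by Gm5523 (r = 0.971). Each is the highest of many correlations over 8 arrays and was not tested. Within the list, the closest partner of Asl was Arg1, which ranked 20th of all genes for Asl, and the closest of Ass1 was Otc (r = 0.925), which ranked 37th.

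Other genes of nitrogen metabolism were taken from lists chosen by function, also with earlier results of these data known. Of 11 genes of nitrogen supply and transamination 0 were called, with 8 lower and 3 higher in NB (72.7% lower, median log2 fold change −0.05). Over all features 54.1% were lower in NB. Among features at least as bright as the dimmest of the 10 genes it was 70.0%. Got1, the cytosolic aspartate aminotransferase, read 5.39, 5.26, 5.34 and 5.01 in NN and 4.90, 3.64, 4.96 and 5.50 in NB (log2 fold change −0.50, SE 0.339). Array NB 3 was again the lowest and NB 8 the highest. Gpt2, an alanine aminotransferase, had −0.15 (SE 0.139).

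Of 12 amino acid and nitrogen transporters 0 were called, with 9 lower and 3 higher in NB (75% lower, median −0.07). The mitochondrial glutamate carrier gene Slc25a18 had 0.19 (SE 0.116) and the ammonia channel gene Rhbg −0.10 (SE 0.0989). Of 13 genes listed as regulators of these pathways 0 were called, with 7 lower and 6 higher (53.8% lower, median −0.04). The list included Tat, which encodes an aminotransferase and not a regulator and had its lowest value (−0.21, SE 0.203). Gcgr, the glucagon receptor, had −0.10 (SE 0.0766) and Creb1, the transcription factor downstream of it, 0.10 (SE 0.0785).

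The zonation of the liver was looked at on both sides of the lobule. Some of the pericentral genes, Glul and Rhbg among them, were also counted in the lists above. Of 11 other periportal genes 0 were called, with 8 lower and 3 higher in NB (72.7% lower, median −0.07). That share is near the 70.0% among features at least as bright as the dimmest of the 10 genes. Etnppl, a phospholyase of phosphoethanolamine breakdown, read 4.49, 3.87, 2.96 and 3.14 in NN and 3.26, 1.66, 2.87 and 3.23 in NB, with NB 3 lowest and NN 1 highest (log2 fold change −0.86, SE 0.432). Of 12 pericentral genes 0 were called, with 5 lower and 7 higher (41.7% lower, median 0.02). Glul, the glutamine synthetase that removes the last ammonia, had 0.03 (SE 0.103), Slc13a3 had 0.21 (SE 0.105) and Rgn −0.13 (SE 0.0737).

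**Figure D5:**
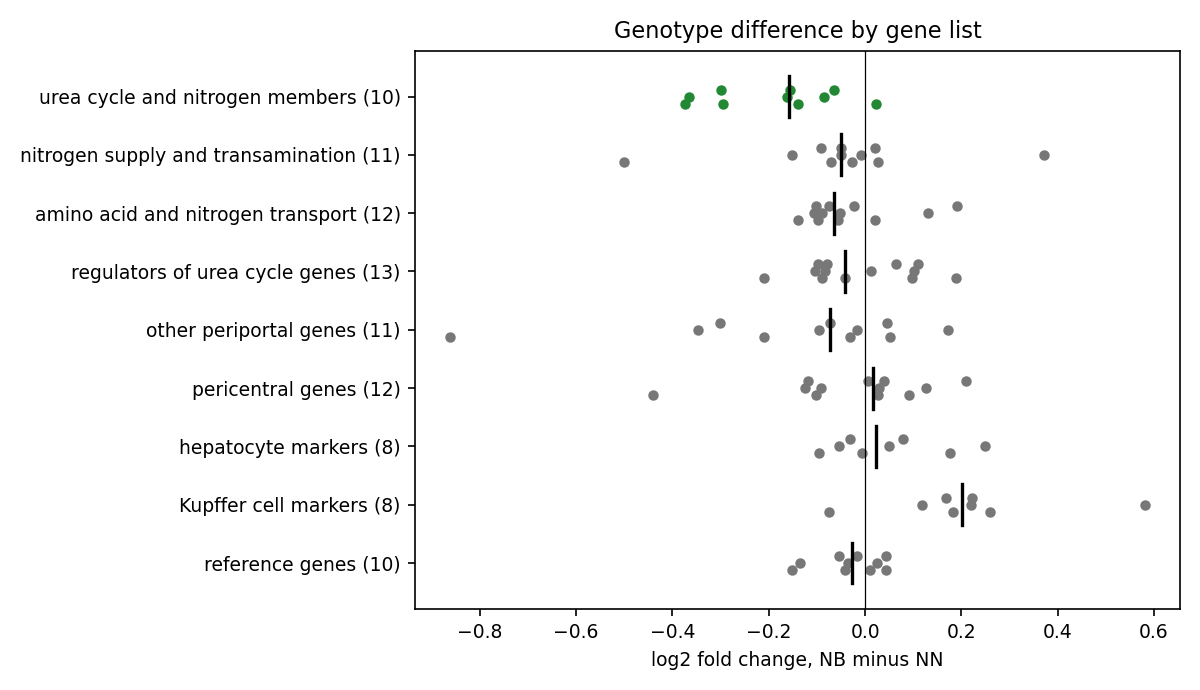
Log2 fold change (NB minus NN) of every tested gene of the 10 urea cycle and nitrogen genes (green) and of 8 other lists (grey), with the number of genes in brackets and a vertical bar at each list's median. The medians run from −0.16 for the urea cycle and nitrogen genes to 0.20 for the Kupffer cell markers. Some lists share genes, such as Glul.

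Fewer cells of a type and less RNA per cell cannot be told apart in these tissue samples. Liver identity was seen in the 8 tested hepatocyte markers, which were well above background. Their summed linear level lay between 1625 and 1964 in NN and between 1668 and 1950 in NB (in units of the array percentile), with 4 higher and 4 lower in NB. For Alb, which encodes albumin, the log2 fold change was 0.18 (SE 0.0926), and Ahsg was at −0.10 (SE 0.0697). Of 8 Kupffer cell markers 7 were higher in NB and 0 were called, with a median of 0.20 and the summed levels given above. Clec4f had 0.18 (SE 0.0906) and Adgre1 0.22 (SE 0.113).

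Other cell markers gave 0 calls as well. Stellate cell genes were higher in 5 of 8, with Pdgfrb at 0.36 (SE 0.118) and Lrat at 0.14 (SE 0.15), and their summed levels were 38.2 to 50.6 in NN and 41.5 to 46.1 in NB. Sinusoidal endothelial genes were higher in 5 of 8, with Pecam1 at −0.11 (SE 0.104) and Stab2 at 0.09 (SE 0.102), and summed to 51.7 to 57.4 in NN and 51.4 to 60.1 in NB. Cholangiocyte genes were lower in 6 of 8, with Spp1 at 0.47 (SE 0.218), and summed to 50.1 to 62.8 in NN and 46.9 to 62.6 in NB.

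Lymphocyte genes were lower in 5 of 9, with Cd3e at 0.16 (SE 0.117), and summed to 20.7 to 28.7 in NN and 16.9 to 27.9 in NB. Erythroid and extrahepatic genes were lower in 3 of 6, with Cela1 at 0.14 (SE 0.128) and Alas2 at −0.10 (SE 0.111), and summed to 73.8 to 81.8 in NN and 73.3 to 83.7 in NB. The pancreatic gene Prss2 and the adipocyte gene Adipoq were well above background on at most 3 arrays each and were not tested. Reference genes were lower in 6 of 10, with a median of −0.03, Pgk1 at −0.13 (SE 0.0810) and Gapdh at −0.15 (SE 0.117), and summed to 589.9 to 671.8 in NN and 614.4 to 654.2 in NB.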

How the data were processed

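Cy3-labelled liver RNA of 8 samples was read on 1-colour Agilent arrays. The software was Agilent Feature Extraction, 11.5.1.1 per the file headers and 9.1 per the submitters' processing notes. Its deposited processed signal is a spot intensity, background-subtracted and detrended per the file headers, and not scaled between arrays; the other columns used, the software's marks for outlying, saturated and well-above-background spots, are 0 or 1 per the file headers. The authors' deposited value table holds linear intensity values whose sorted columns are the same, with unstated processing, and was an alternative.

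Accessions without version were matched to the GRCm38.p6 gene table, naming 31064 of 60273 probes. Outlier spots were missing values. Log2 signals were set relative to each array's 75th percentile. Probes well above background on at least 4 arrays were kept (46848) and the brightest represented its gene. The genotype fit used limma 3.58.1 (R 4.3.3) over all features (NB minus NN, two-sided, Benjamini-Hochberg, threshold 0.05). Correlations used 40320 exact pairings, two-sided. Slide positions come from the array numbering at the end of the scanner files' names. The fit was tested on simulated data.

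The genes and lists were chosen with earlier results of these data known. Named are the 10 genes, of each other list the 2 genes with the smallest p, and the gene most correlated with each of the 10. Some genes that this rule names are not reported here. Glul, Tat, Prss2 and Adipoq were added for their role or detection. Prss2 and Adipoq failed the filter, and Tf and Hba-a1 were not matched to a probe. Alternatives covered scaling, background (normexp, offset 50), the deposited table, filters, probe summary, variance model, array weights, slide row and column, and each array left out.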

Additional observations from a re-analysis of the deposited data

Results flagged for a closer look

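Among 86 sets of 4 arrays of 1 genotype examined for the named genes, 3 held 1 array far from the other 3, where chance gives about 5% of sets. Cps1 on NB 3 was 5.54, against 5.92 to 5.98 on the other NB arrays. Asl on NN 7 was 3.59, against 3.86 to 3.90 on the other NN arrays. Park7 was 4.25 on NN 7, against 4.36 to 4.37. It was examined because it followed Asl most closely, so its flag is not separate from that of Asl.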

How the results depend on the processing

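Of 200 values of the 10 genes under 20 alternatives, 197 kept their direction, and 0 of these genes were called under any. The 3 exceptions lay next to 0. Nags was at −2.62e-06 without NN 1 and at −0.00182 without NB 8, and Slc25a13 was at 0.0139 without NN 1. Part of the 197 only repeats the main values. The variance model, the slide row and the slide column left all 10 fold changes as they were. So did removing or tightening the filter. Averaging probes changed only the genes with a second probe. Leaving out single arrays gave −0.00182 to 0.0729 for Nags, −0.116 to 0.0139 for Slc25a13 and −0.244 to −0.119 for the median of the 10 genes. Averaging the probes of each gene called 5 features, against 3. With quantile normalization 0 of the 7 pairs of genes passed, against 1 (Asl with Arg1). The number of arrays, 4 a genotype, limits the precision.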
